A study of Arabidopsis thaliana with 9 samples.

Results

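The genes described here are 8 Arabidopsis loci that make or switch on camalexin and the indole cyanogenic defence compounds. The rule names them as CYP79B2, CYP79B3, CYP71A12, CYP71A13, PAD3, CYP82C2, GGP1 and WRKY33, out of 37328 genes in the authors' deposited table, and they were selected on the deposited log2 ratios and q values of both comparisons, RPGE2-OX over WT and glk12 over WT. Those values therefore describe them and serve as no test. RNA sequencing compared whole Arabidopsis thaliana seedlings of 3 genotypes, all in the Col-0 ecotype, with 3 replicates each and 9 libraries in all. The genotypes were RPGE2-OX, which overexpresses RPGE2, glk12, a double mutant of GLK1 and GLK2, and the wild type (WT). All seedlings were 7 days old and had grown under white light kept on throughout (50 µmol per m2 per second, 22 °C), after 3 days at 4 °C. The sources used here name neither the promoter that drives RPGE2 nor the number of independent lines, and do not say whether replicates were separate cultures. The q values may measure technical spread.

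GLK1 and GLK2 are a pair of factors that switch on nuclear genes for chloroplast development. Camalexin is the main phytoalexin of Arabidopsis, an indole compound with sulfur that is made from tryptophan when pathogens or stress are sensed. CYP79B enzymes turn tryptophan into indole-3-acetaldoxime, a branch point from which camalexin, indole glucosinolates and some auxin are made. CYP71A enzymes dehydrate the oxime. One route then leads through a glutathione conjugate and PAD3 to camalexin, and another leads through indole carbonyl nitrile and CYP82C2 to its hydroxylated, cyanogenic form. WRKY33 is a transcription factor that activates several of these genes after infection and binds W-box elements.

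The table held 1 log2 ratio and 1 q value per gene for each line over WT, with neither levels nor read counts. The depth of the libraries is therefore unknown, the members cannot be ranked by level, and the spread over replicates cannot be printed. The error printed here is an implied SE on the log2 scale, worked out from the deposited ratio and the p behind its q value, and it is an upper bound where the p is the lowest that the table holds. A gene is called at a deposited q below 0.05. Both ratios share the WT libraries, so likeness between the lines is no independent evidence. As a check of the glk12 label, the deposited ratio of GLK1 was 0.45 in RPGE2-OX and -2.64 in glk12, and that of GLK2 was 0.40 in RPGE2-OX and -1.41 in glk12, with all 4 called. The label of RPGE2-OX was not checked by its own gene here.

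Of the 8 members, 4 were called in RPGE2-OX, with CYP71A12, PAD3 and CYP82C2 higher and GGP1 lower than in WT. In the authors' deposited table as a whole, 6.55% of the tested genes were called in that line, 2.57% higher and 3.98% lower. In glk12, 5 of the 8 were called, all higher, namely CYP79B2, CYP71A12, PAD3, CYP82C2 and WRKY33. The background there was 5.67% of the tested genes, 2.63% higher and 3.04% lower. These contrasts chose the members, so nothing is read from the counts beside their backgrounds. Over the 7 members with finite ratios the median deposited log2 ratio was 0.24 in RPGE2-OX and 1.45 in glk12, against 0.01 and 0.02 over all tested genes with finite ratios in the same order of lines. CYP71A12, CYP71A13 and PAD3 carried the largest finite ratios, with CYP71A13 called in neither line. CYP79B2, CYP79B3, GGP1 and WRKY33 stayed within 3-fold of WT in both lines. In whole seedlings, more cells with an active pathway and more RNA per cell cannot be told apart.

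**Figure D1:**
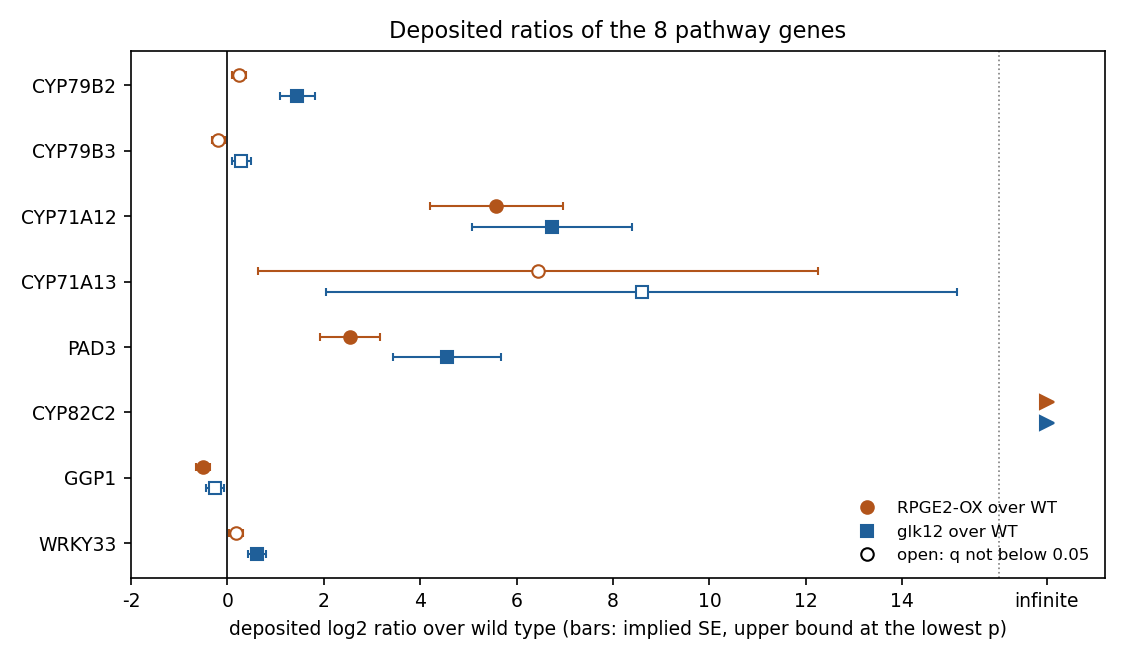
Deposited log2 ratios over WT of the 8 pathway genes (horizontal axis), RPGE2-OX above glk12 in each pair of rows. Bars show the implied SE, an upper bound at the lowest p, and open symbols mark q not below 0.05. CYP71A12, PAD3 and CYP82C2 are filled in both lines, CYP71A13 has large ratios with bars that span most of the axis, and CYP82C2 is drawn past the dotted line because its deposited ratio is infinite.

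Among the members the CYP71A pair and PAD3 carry the finite ratios that stand furthest from WT, though CYP71A13 was called in neither line. The sequence around their starts is shown here because CYP71A12 and CYP71A13 are near copies. Each window runs from 250 bases before to 50 after the annotated start in RefSeq TAIR10.1, written 5′ to 3′ on the gene's strand, and capitals mark the motif CCAATC, reported for GLK1 target promoters. CYP71A12 (AT2G30750) has its window at chr2:13101322-13101621 on the minus strand, CYP71A13 (AT2G30770) at chr2:13111939-13112238 on the minus strand, and PAD3 (AT3G26830) at chr3:9887667-9887966 on the plus strand.
CYP71A12: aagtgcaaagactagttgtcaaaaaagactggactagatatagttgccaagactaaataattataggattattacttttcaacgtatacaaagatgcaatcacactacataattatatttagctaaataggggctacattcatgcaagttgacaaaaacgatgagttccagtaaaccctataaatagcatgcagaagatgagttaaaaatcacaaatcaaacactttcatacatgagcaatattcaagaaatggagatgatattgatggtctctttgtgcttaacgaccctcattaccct
CYP71A13: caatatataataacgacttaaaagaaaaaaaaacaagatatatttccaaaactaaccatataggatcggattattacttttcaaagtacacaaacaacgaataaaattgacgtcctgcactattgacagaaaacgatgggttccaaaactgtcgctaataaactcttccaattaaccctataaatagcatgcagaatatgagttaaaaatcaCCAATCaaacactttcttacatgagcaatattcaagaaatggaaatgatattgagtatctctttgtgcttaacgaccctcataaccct
PAD3: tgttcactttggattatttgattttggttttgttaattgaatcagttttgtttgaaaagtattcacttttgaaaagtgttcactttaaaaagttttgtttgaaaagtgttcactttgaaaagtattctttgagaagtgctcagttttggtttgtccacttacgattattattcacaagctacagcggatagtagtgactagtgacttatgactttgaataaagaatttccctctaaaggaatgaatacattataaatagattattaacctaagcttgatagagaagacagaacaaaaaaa

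The windows of CYP71A12 and CYP71A13 were 71.8% identical in a global alignment. Their longest shared run, 26 bases, spans the start itself and covers bases -21 to 4, counted from 0 at the annotated start: tacatgagcaatattcaagaaatgga. CYP71A13 held 1 match to CCAATC, at bases -38 to -33, where the window of CYP71A12 differs by 1 base. The motif occurred in 12.3% of 27443 protein-coding promoter windows, and a match says nothing about binding. The window of PAD3 was 46.5% identical to that of CYP71A12, with a shared run of only 9 bases.

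CYP79B2 and CYP79B3 catalyse the same first reaction, the conversion of tryptophan to indole-3-acetaldoxime. CYP79B2 (AT4G39950, chr4:18525042-18527602) had a deposited log2 ratio of 0.24 in RPGE2-OX (implied SE 0.14, q = 0.387) and 1.45 in glk12 (SE at most 0.36, q = 0.00191). CYP79B3 (AT2G22330, chr2:9488413-9491404) had deposited ratios of -0.19 in RPGE2-OX (SE 0.14, q = 0.55) and 0.29 in glk12 (SE 0.19, q = 0.54). Of the pair, CYP79B2 was called in glk12 and in no other comparison, and CYP79B3 was called in neither line. The coding sequences of the pair were 78.1% identical, with no identical run over 32 bases. Their promoter windows were 47.0% identical but shared a run of 22 bases, ttttggcaggtcaccaacaaaa, at bases -77 to -56 in CYP79B2 and -151 to -130 in CYP79B3.

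CYP71A12 and CYP71A13 dehydrate the aldoxime to indole-3-acetonitrile, CYP71A13 mainly towards camalexin and CYP71A12 mainly towards indole carbonyl nitrile. CYP71A12 (chr2:13099486-13101371) was 47.8-fold higher in RPGE2-OX (log2 ratio 5.58, SE at most 1.38, q = 0.00176) and 106-fold higher in glk12 (6.73, SE at most 1.66, q = 0.00191) in the authors' deposited table. In each line that was the highest finite ratio of any called gene. CYP71A13 (chr2:13109909-13111988) had still larger deposited ratios, 6.44 in RPGE2-OX (SE 5.81, q = 0.689) and 8.59 in glk12 (SE 6.55, q = 0.621), and was called in neither. Its implied errors were of the order of the ratios themselves, and no change of CYP71A13 can be read from the table in either line. Ratios of this size were seldom called. Of 16 genes with a finite deposited log2 ratio above 6 in RPGE2-OX 0 were called, and of 31 such genes in glk12 3 were.

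The genomic setting of the CYP71A pair bears on how reads could be assigned. The genes lie on the same strand with 8537 bases between them, and their coding sequences were 90.4% identical with an identical run of up to 59 bases. CYP71A18, another close copy (88.5% identical to CYP71A12 and 86.3% to CYP71A13), was listed with a ratio of 0.00 in each line and went untested in the deposited table. AT2G30760, which lies between the pair on the same strand, had deposited ratios of -0.55 in RPGE2-OX and -1.69 in glk12 and was not tested. AT2G30766 overlaps CYP71A13 by 572 bases on the opposite strand, with deposited ratios of -0.14 in RPGE2-OX (q = 0.818) and 0.50 in glk12 (q = 0.381). The libraries were stranded per the labels, but the sources used here do not say how strand and multiply mapped reads were handled, so the values of CYP71A12 and CYP71A13 are uncertain to the extent that reads of one could be counted for the other.

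PAD3 (CYP71B15, chr3:9887917-9889791) catalyses the last steps to camalexin. It was 5.82-fold higher in RPGE2-OX (log2 ratio 2.54, SE at most 0.63, q = 0.00176) and 23.5-fold higher in glk12 (4.56, SE at most 1.12, q = 0.00191) in the authors' deposited table. Those ratios were the 12th and 10th highest finite ones among called genes in the same order of lines. PAD3 was 53.4% identical to CYP71A12 in coding sequence with no identical run over 15 bases, and no annotated gene overlaps it. The gene whose pair of ratios lay nearest to that of PAD3 was DIN11 (AT3G49620), at a Euclidean distance of 0.29 over both comparisons, with deposited ratios of 2.70 in RPGE2-OX and 4.79 in glk12, both called.

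The cyanogenic branch is represented by CYP82C2, which hydroxylates indole carbonyl nitrile. Its start is shown because it held the most matches to the W-box form TTGACC of any member, with capitals marking TTGACC or its reverse complement, and WRKY33 is shown beside it as the factor named for such elements, with the second form TTGACT and CCAATC also in capitals. CYP82C2 (AT4G31970) has its window at chr4:15462100-15462399 and WRKY33 (AT2G38470) at chr2:16107985-16108284, both on the plus strand.
CYP82C2: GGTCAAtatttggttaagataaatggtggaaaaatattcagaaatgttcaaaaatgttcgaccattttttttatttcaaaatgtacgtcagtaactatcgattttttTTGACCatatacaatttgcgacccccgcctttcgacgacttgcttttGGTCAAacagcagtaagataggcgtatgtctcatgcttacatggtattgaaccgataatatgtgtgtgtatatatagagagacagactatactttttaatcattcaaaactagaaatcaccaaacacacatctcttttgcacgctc
WRKY33: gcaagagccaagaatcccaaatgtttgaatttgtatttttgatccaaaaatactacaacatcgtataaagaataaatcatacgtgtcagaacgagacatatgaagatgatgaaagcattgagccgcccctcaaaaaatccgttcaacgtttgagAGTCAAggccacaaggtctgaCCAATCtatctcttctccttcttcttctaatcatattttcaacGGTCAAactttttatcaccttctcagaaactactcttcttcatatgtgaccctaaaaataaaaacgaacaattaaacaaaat

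CYP82C2 (chr4:15462350-15464563) had an infinite deposited ratio in both lines, and it was called in both (q = 0.00176 in RPGE2-OX and q = 0.00191 in glk12). An infinite ratio implies a WT value of 0, though the table lists no levels. No fold or error can be given against a value of 0. Of 22 genes tested in both comparisons with an infinite upward ratio in both, 4 were called in both, and CYP82C2 was 1 of them. AT1G26380, annotated in the table as an FAD-binding Berberine family protein and known to act just before CYP82C2, was 13.1-fold higher in RPGE2-OX (log2 ratio 3.71, SE at most 0.92, q = 0.00176) and 68.1-fold higher in glk12 (6.09, q = 0.00191) in the authors' deposited table.

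CYP82C2 sits in a tandem cluster on chromosome 4 whose copies did not share its pattern in every respect. CYP82C3, the nearest copy, lies 5228 bases away, and its coding sequence was 90.8% identical to that of CYP82C2. It also had infinite deposited ratios in both lines but was called in glk12 (q = 0.00191) and not tested in RPGE2-OX. CYP82C4, which acts in the synthesis of iron-mobilising coumarins, lies 858 bases beyond CYP82C3 and was 92.8% identical to CYP82C2. It was 2.40-fold higher in RPGE2-OX (log2 ratio 1.26) and 2.42-fold higher in glk12 (1.27) in the authors' deposited table, called in both. The runs shared between these copies reached 85 bases for CYP82C2 with CYP82C3 and 78 bases with CYP82C4, so the assignment of reads among the copies is uncertain.

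GGP1 (AT4G30530, chr4:14920376-14922519) encodes a gamma-glutamyl peptidase that trims the glutathione conjugates on the way to camalexin and to glucosinolates. It was the single member called lower, by 1.42-fold in RPGE2-OX (deposited log2 ratio -0.51, SE 0.14, q = 0.0103), and its deposited ratio in glk12 was -0.26 (SE 0.19, q = 0.574). That call is not made at q below 0.01, where 2.37% of tested genes were called lower, or with a 2-fold minimum, where 260 of 21680 were. Its neighbour copy GGP3, 2887 bases away and 69.2% identical, had deposited ratios of -0.02 in RPGE2-OX and -0.18 in glk12 and was called in neither. The ratio pair of GGP1 lay near that of BGLU9 (distance 0.012), whose deposited ratios were -0.51 in RPGE2-OX, called, and -0.25 in glk12, not called.

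WRKY33 (chr2:16108235-16110766) was listed at a deposited log2 ratio of 0.18 in RPGE2-OX (SE 0.14, q = 0.611) and was 1.52-fold higher in glk12 (0.61, SE 0.18, q = 0.0211). The glk12 call is lost at q below 0.01 and with a 2-fold minimum, which leave 4 members called higher (1.58% and 1.24% of all tested genes in the same order of rules), and the ratio there is 0.39 when centred on the reference genes. The change in the regulator was small beside those of CYP71A12 and PAD3 in the same line. A pair of annotated genes overlaps it on the opposite strand, the long noncoding RNA AT2G08965 by 272 bases and AT2G38480 by 26, and neither was called in either line. Its closest relatives differed from it in part. WRKY25 had deposited ratios of -0.13 in RPGE2-OX and 0.14 in glk12, called in neither, while WRKY26 had 0.28 in RPGE2-OX, not called, and was 1.97-fold higher in glk12 (0.98, q = 0.00191).

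The promoter windows of the 8 members were searched on both strands for the W-box forms TTGACC and TTGACT and for CCAATC, none of which overlaps another in these windows. TTGACC was found in CYP82C2, with 3 matches, and in WRKY33. TTGACT was found in GGP1 and in WRKY33 itself. At least 1 of both forms was therefore present in 3 of 8 members, against 32.4% of 27443 protein-coding promoters. TTGACC alone occurred in 14.2% of those promoters and TTGACT in 21.8%. CCAATC was found in CYP71A13 and WRKY33. The windows of CYP79B2, CYP79B3, CYP71A12 and PAD3 held none of these letters, which says nothing about sites outside the window. CYP82C2 and CYP82C3 shared a 23-base run, gacgacttgcttttggtcaaaca, that carries the W-box nearest to the start of CYP82C2.

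**Figure D2:**
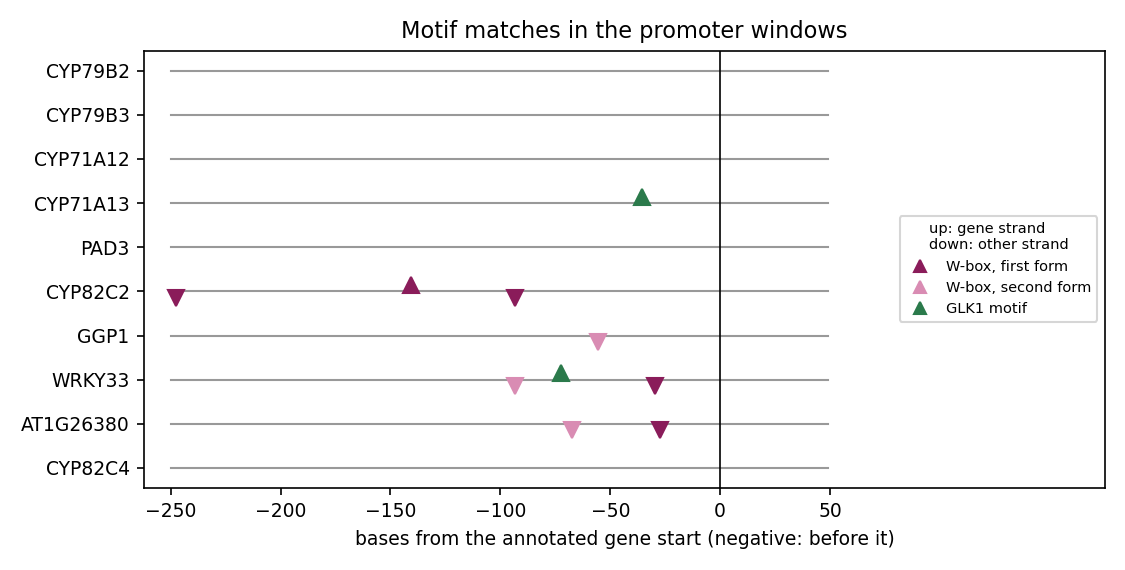
Positions of motif matches in promoter windows, in bases from the annotated start (horizontal axis), for the 8 members, AT1G26380 and CYP82C4. Triangles point up for the gene's strand and down for the other strand, and colours separate the W-box forms TTGACC (first) and TTGACT (second) and the GLK1 motif. CYP82C2 holds 3 matches to the first form, WRKY33 holds 1 match to each motif, and 4 of the 8 members hold none.

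The lines were next set side by side as the difference of their deposited log2 ratios, RPGE2-OX minus glk12. All 7 members with finite ratios lay below 0, that is, lower in RPGE2-OX, with a median of -1.15. Over the 21380 genes tested and finite in both, 50.2% lay below 0 and the median was -0.00. The direction was not particular to the members. In lists described below, 7 of 7 conjugation and export genes, 7 of 7 defence markers and 9 of 11 tryptophan synthesis genes lay below 0. So did 12 of 14 indole glucosinolate genes and 7 of 10 reference genes, against 4 of 12 root markers. The difference was -1.21 for CYP79B2 (SE at most 0.38), -2.02 for PAD3 (SE at most 1.29) and -1.15 for CYP71A12 (SE at most 2.16). It was -0.48 for CYP79B3 (SE 0.24), -0.42 for WRKY33 (SE 0.23) and -0.25 for GGP1 (SE 0.24). For CYP71A13 it was -2.15 with an SE of 8.75. Each of these SEs joins the implied errors of both ratios as if the ratios were independent. The WT libraries are shared, so none is the exact SE of the difference. These differences carry no test, because both ratios chose the members. The 10 reference genes had a median difference of -0.23, since their median deposited ratio was -0.01 in RPGE2-OX and 0.22 in glk12. With both ratios centred on those genes the 7 members stayed below 0, with a median of -0.92. CYP79B2 then came to -0.98, CYP79B3 to -0.24, WRKY33 to -0.19 and GGP1 to -0.01, and 18.9% of all genes then lay below 0. The median of all genes then stood at 0.23, so the shift itself lowers that share. CYP82C2 has no finite difference.

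**Figure D3:**
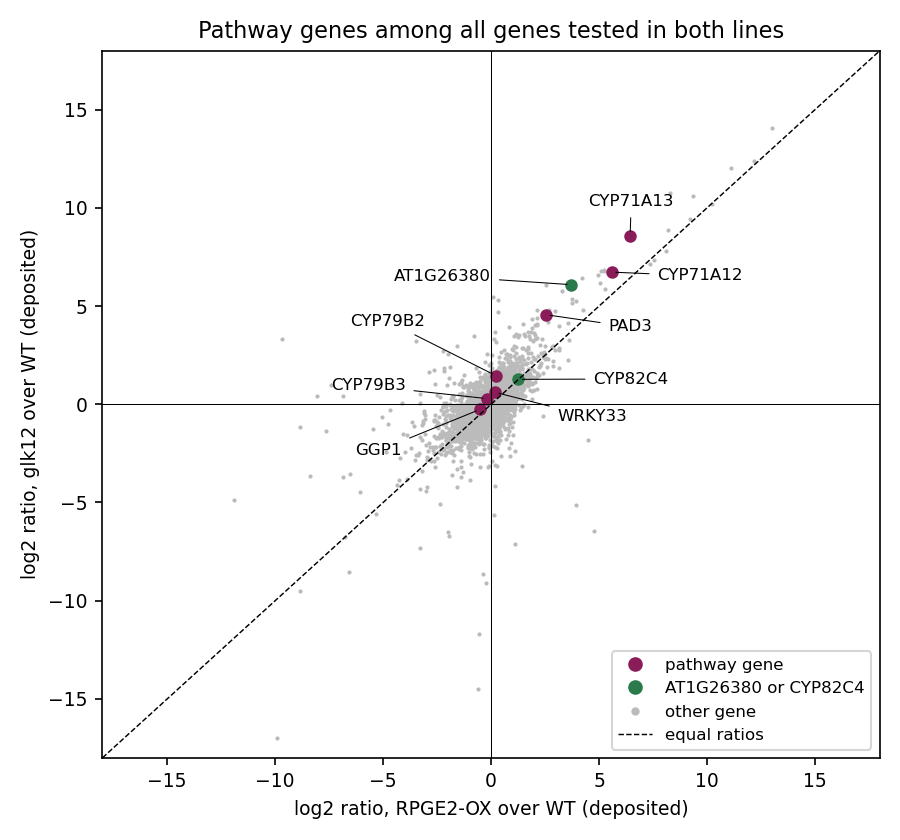
Deposited log2 ratios over WT of the 21380 genes tested and finite in both comparisons, RPGE2-OX on the horizontal axis and glk12 on the vertical axis. The 7 members with finite ratios and 2 relatives are coloured, and the dashed line marks equal ratios. All 7 members lie above that line, from GGP1 (-0.51 in RPGE2-OX, -0.26 in glk12) to CYP71A13 (6.44 in RPGE2-OX, 8.59 in glk12). WT is shared by both axes.

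Upstream of the members, the genes of tryptophan synthesis supply the substrate. Of 11 tested, 1 was called higher in RPGE2-OX and 5 in glk12, with 0 lower in either line, and the median deposited log2 ratio was 0.19 in RPGE2-OX and 0.87 in glk12. The share called higher was 9.09% in RPGE2-OX and 45.5% in glk12, against 2.57% and 2.63% of all tested genes. In glk12, ASA1, the feedback-regulated first enzyme, was 2.65-fold higher (1.41), its partner subunit ASB1 2.50-fold higher (1.32) and TSA1, the alpha subunit of tryptophan synthase, 2.63-fold higher (1.39) as deposited, all at q = 0.00191. The beta subunit genes TSB1 and TSB2 were 2.18-fold and 1.83-fold higher there at the same q. TSA1 was also the gene called in RPGE2-OX, at a deposited ratio of 0.42 (q = 0.039).

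Beside the members, most tested genes of a list drawn up for conjugation and export of camalexin and its precursors were higher in glk12. The list also holds genes of other roles, among them CYP71B6. Of 7 tested in RPGE2-OX 3 were higher, and of 8 tested in glk12 6 were, with 0 lower in both and median deposited ratios of 0.06 in RPGE2-OX and 1.14 in glk12. As shares, 42.9% were higher in RPGE2-OX and 75% in glk12, against 2.57% and 2.63% of all tested genes. GSTF6, a glutathione transferase that can form the indole conjugate, was 3.74-fold higher in RPGE2-OX (log2 ratio 1.90) and 20.3-fold higher in glk12 (4.34) in the deposited table. Its coding sequence was 94.3% identical to that of GSTF7, so part of its reads may belong to that copy. GSTF7 itself (AT1G02920) had deposited log2 ratios of 2.03 in RPGE2-OX and 4.02 in glk12. GSTU4, another glutathione transferase, had deposited log2 ratios of 2.14 in RPGE2-OX and 4.38 in glk12, both called. CYP71B6, which diverts indole-3-acetonitrile to indole-3-carboxylic acid, had deposited ratios of 0.47 in RPGE2-OX (q = 0.0275) and 1.40 in glk12 (q = 0.00191). The ABC transporters PDR12 and PEN3, which take part in camalexin secretion, were 7.70-fold and 1.84-fold higher in glk12, and in RPGE2-OX PDR12 was not tested and PEN3 had a ratio of 0.01. GH3.5, an acyl amido synthetase, had a deposited ratio of 0.59 in glk12 (q = 0.0165).

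The indole glucosinolate branch, which draws on the same aldoxime, did not move as a block. Of 14 tested genes 3 were higher and 2 lower in RPGE2-OX, and 3 were higher and 0 lower in glk12, with median deposited ratios of -0.14 in RPGE2-OX and 0.21 in glk12, where the reference genes stood at 0.22. That is 21.4% higher and 14.3% lower in RPGE2-OX, against 2.57% and 3.98% of all tested genes. The share higher in glk12 was 21.4%, against 2.63%. The higher ones were the same 3 genes of ring modification in both lines. CYP81F2, which hydroxylates the indole ring, had deposited ratios of 0.54 in RPGE2-OX and 1.37 in glk12. IGMT1 and IGMT2, which methylate the product, had deposited ratios of 0.95 and 1.44 in RPGE2-OX and of 1.49 and 2.37 in glk12. SUR1, the lyase that forms the thiohydroximate, was lower in RPGE2-OX at -0.51 (q = 0.00815), as was CYP81F3 at -0.78 (q = 0.0113). CYP83B1, the entry enzyme of this branch, had deposited ratios of -0.19 in RPGE2-OX and 0.23 in glk12, called in neither.

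Of the 7 genes listed for auxin synthesis by way of indole nitriles or indole pyruvate, 0 were higher and 2 lower in RPGE2-OX. In glk12 1 was higher and 1 lower, and the median deposited ratios were -0.02 in RPGE2-OX and -0.30 in glk12. That is 28.6% called in each line, against 6.55% of all tested genes in RPGE2-OX and 5.67% in glk12. NIT1 (-0.47) and YUC2 (-0.87) were the lower ones in RPGE2-OX in the deposited table. In glk12 the nitrilase NIT2 was 2.88-fold higher (1.53) and NIT3 was lower (-0.66), and these nitrilases are near copies, with NIT2 89.5% identical to NIT1 in coding sequence.

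Among regulators of camalexin and indole genes, 2 of 19 tested were called higher in RPGE2-OX and 3 of 20 in glk12, with 0 lower in both. That is 10.5% higher in RPGE2-OX and 15% in glk12, against 2.57% and 2.63% of all tested genes. ANAC042, a NAC factor needed for camalexin induction, was 8.92-fold higher in RPGE2-OX (log2 ratio 3.16, SE at most 0.78) and 16.1-fold higher in glk12 (4.01) in the authors' deposited table. MYB122, a factor for indole glucosinolate and camalexin genes, was 2.82-fold higher in RPGE2-OX (1.49) and 4.13-fold higher in glk12 (2.05). WRKY40 was 1.70-fold higher in glk12 (0.77) and had 0.09 in RPGE2-OX. MYB34, MYB51, MPK3 and MPK6, further factors and kinases upstream of the pathway, were called in neither line. Over the 5 lists together, 9 of 58 tested genes were higher and 4 lower in RPGE2-OX, and 18 of 60 were higher and 1 lower in glk12. As shares, 15.5% were higher and 6.90% lower in RPGE2-OX, where 2.57% and 3.98% of all tested genes were. In glk12 31.7% were called in either direction, against 5.67% of all tested genes. By direction, 30% were higher there, against 2.63%, and 1.67% were lower, against 3.04%.

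**Figure D4:**
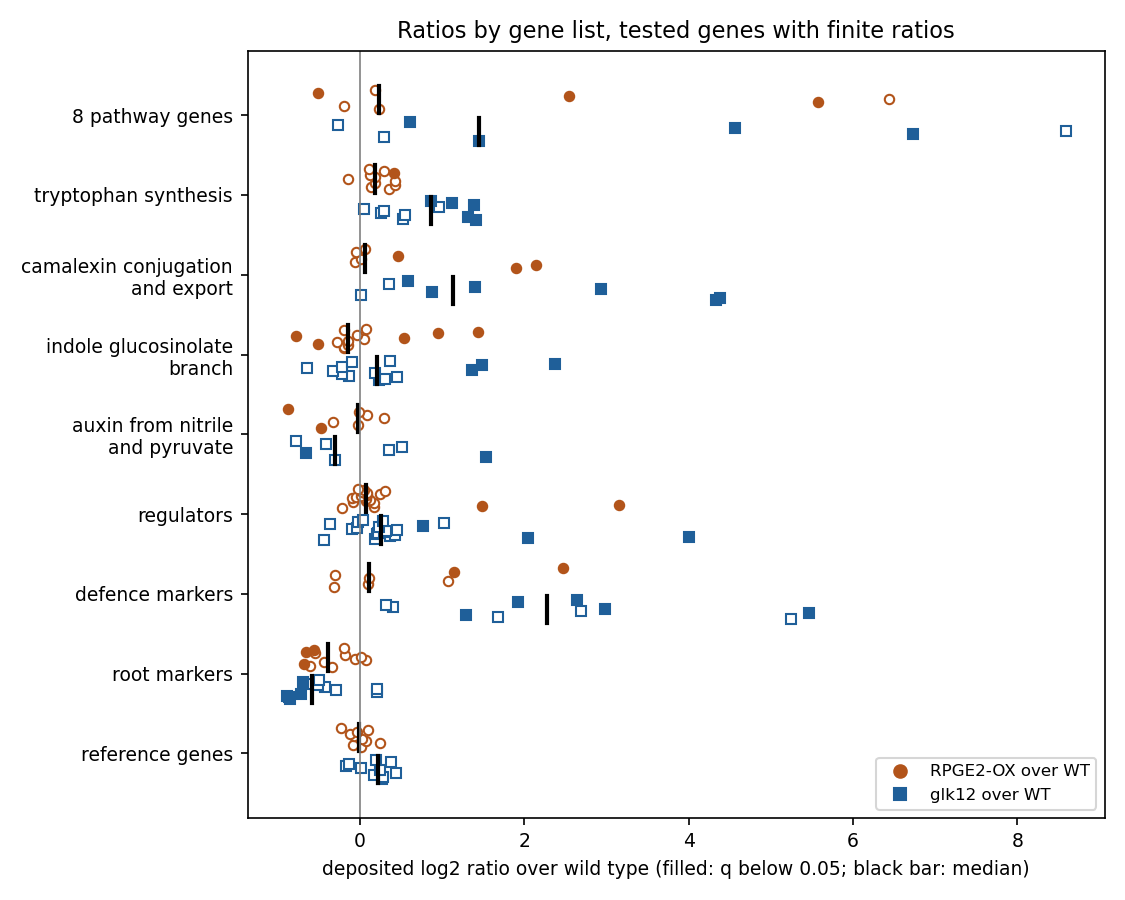
Deposited log2 ratios over WT of the members and of the lists around them, RPGE2-OX above glk12 in each list. Each point is a tested gene with a finite ratio, filled where called, and the bars mark medians, 0.24 in RPGE2-OX and 1.45 in glk12 for the members. The medians of tryptophan synthesis and of conjugation and export are 0.19 and 0.06 in RPGE2-OX and 0.87 and 1.14 in glk12.

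Genes that mark defence or organs of the seedling were read beside these results. Of the defence markers, 2 of 7 tested were higher in RPGE2-OX and 5 of 10 in glk12. As shares, 28.6% were higher in RPGE2-OX and 50% in glk12, against 2.57% and 2.63% of all tested genes. The median deposited ratios, 0.11 in RPGE2-OX and 2.28 in glk12, cover different genes. PR1, PR2 and FRK1 were not tested in RPGE2-OX, where their deposited ratios were 3.59, 0.62 and 1.52. They count in the glk12 median (5.25, 1.68 and 2.69), though none was called there. PROPEP3, a precursor of a danger peptide, was 5.54-fold higher in RPGE2-OX and 6.23-fold higher in glk12, and CRK13, a receptor-like kinase, 2.22-fold and 3.79-fold in the same order of lines. PDF1.2, a defensin of the jasmonate and ethylene branch, stood at a deposited ratio of 0.10 in RPGE2-OX (q = 0.977) and 5.46 in glk12 (q = 0.00191). NHL10 and PR5 had deposited ratios of 2.98 and 1.29 in glk12, both called, and of 1.07 and -0.31 in RPGE2-OX, neither called. Root markers were lower for 3 of 12 tested in RPGE2-OX (median -0.38) and 4 of 12 in glk12 (median -0.57), with 0 higher in both. That is 25% lower in RPGE2-OX and 33.3% in glk12, against 3.98% and 3.04% of all tested genes. The root markers called were COBL9, PRP3 and RCI3 in RPGE2-OX and COBL9, EXPA18, RHD2 and RCI3 in glk12. Of 5 guard cell markers, KAT1 was lower in both lines, which is 20% of that list in each. The part of defence state and organ proportions in the members' ratios was not tested.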

How the data were processed

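Ratios of 37328 genes came from a single table of the authors' own comparisons of RPGE2-OX and glk12 with WT, 3 replicates per genotype. Its columns are a log2 ratio over Col-0 and a q value per line, per the file headers, and the authors' log2 ratios and q-values (p-value type columns) were used as deposited. The submitters' processing notes name CASAVA 1.8.2, TopHat, Cufflinks, Cuffdiff and the build TAIR10, without roles. The deposited table holds 0 columns of per-sample values, so library depth is unknown.

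A q of 1 was read as not tested. Infinite ratios, stored as spreadsheet text, were decoded so that no gene had infinite ratios of opposite sign. Raw p values were recovered by inverting the Benjamini-Hochberg adjustment. Of those at lower q values, 99.8% (RPGE2-OX) and 99.9% (glk12) lay within 0.02 of whole steps of 5e-05. The number of tests was chosen to make that share largest. The q values of CYP71A13 and CYP79B3 in both lines, WRKY33 in RPGE2-OX and GGP1 in glk12 lay above the range checked. The implied SE is the size of the log2 ratio divided by the normal quantile of the recovered p. The recovery of p values and implied SEs was tested only at lower q values, on simulated p values made with the same normal formula. The simulated errors were smaller than those implied for CYP71A13. Whether the authors' p values follow that formula was not tested. Named genes are the 8 members, their closest relatives, GLK1 and GLK2, called genes of each list (at most 6 per list and comparison, by size), a few list genes named as not called after their values were seen, and the 2 genes nearest to each member by distance between ratio pairs. Members and lists were chosen with earlier results of these data known.

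Positions and promoter windows came from RefSeq TAIR10.1, and the table holds no coordinates, so none were converted. The deposited table pairs 7 members with the symbols used here, and RefSeq pairs all 8. Coding sequences were aligned globally in place of proteins, and motifs were searched on both strands. Python 3.11.15, pandas 2.3.3, scipy 1.17.1 and biopython 1.88 were used. Alternatives were other q thresholds, a 2-fold minimum, centring, other error bounds, untested genes kept, and a 150-base window.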

Additional observations from a re-analysis of the deposited data

How the results depend on the processing

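No paired analysis was possible because the table has no per-replicate columns, and leaving out replicates could not be run for the same reason. Of the recomputed counts, ratios, member differences and list medians, 128 stayed within their limits and 18 moved. Part of the 128 was fixed in advance, because other error bounds leave a difference itself unchanged. A member ratio counted as staying wherever its sign held. Only centred member ratios and centred member differences could turn direction, and none did. Outside these recomputed values, centring on the reference genes turned the median difference between lines of the auxin list (0.13, from -0.10), the regulators (0.09, from -0.14) and the guard cell markers (0.18, from -0.05). The lower count among members in RPGE2-OX, 1 as reported (GGP1), was 0 at q below 0.01 and 0 with a 2-fold minimum, and the higher count in glk12 was 4 under each (5 as reported), without WRKY33. For the 5 lists together, the higher count in RPGE2-OX was 5 with a 2-fold minimum (9 as reported), the lower count there was 1 at q below 0.01 and 0 with a 2-fold minimum (4 as reported), and the lower count in glk12 was 0 under both (1 as reported). Each follows from the stricter rule itself. Centring both ratios on the reference genes, chosen after seeing the data, left the difference of WRKY33 at -0.19 (-0.42 as deposited) and that of CYP79B3 at -0.24 (-0.48), and centring glk12 alone left CYP79B3 at 0.06 and WRKY33 at 0.39. The median of the conjugation and export list in RPGE2-OX was 0.26 with the untested gene kept (0.06 without). W-box and CCAATC counts in members were the same in the 150-base window, where 19.1% of all promoters held a W-box form. The depth is unknown, and the lowest p that the table holds limits the errors of its largest ratios to upper bounds.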

Other observations

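By distance between ratio pairs, CYP79B2 lay nearest to AT4G16260 (distance 0.041), which had deposited log2 ratios of 0.26 in RPGE2-OX (q = 0.385) and 1.42 in glk12 (q = 0.00191). The nearest genes to CYP71A12 were AT3G60270, with 5.24 in RPGE2-OX and 6.81 in glk12, and GSTU12, with 5.23 and 6.80 in the same order of lines, and neither was called in either line. CYP71A12 itself was called in both. The second nearest gene to CYP79B2 was AT5G44575, with 0.18 in RPGE2-OX and 1.49 in glk12, called in neither. CYP79B3 lay nearest to AT5G47570 and AT3G16330 (distance 0.012 each), WRKY33 to AT4G06775 (0.013) and AT5G12930 (0.014), and CYP71A13 to the long noncoding RNAs AT5G08880 and AT2G05405 (1.7 each), and none of these 6 was called. Beside DIN11, PAD3 lay near AT3G19615 (0.39), called in neither line, and GGP1 lay nearest to AT3G29760 (0.0076), called in RPGE2-OX.

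AT1G26380 held both W-box forms, TTGACC at bases -30 to -25 and TTGACT at -70 to -65 from its annotated start, both on the strand opposite to the gene. PAI1 and PAI2, which catalyse the same step of tryptophan synthesis, were 99.4% identical in coding sequence with an identical run of 438 bases, so their deposited ratios of 0.43 and -0.14 in RPGE2-OX and 0.26 and 0.30 in glk12, none called, cannot be told apart from a split of shared reads.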
